A study of Mus musculus with 8 samples.

Results

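Choroid plexus cells were found among the sorted hippocampal cells of both genotypes. The choroid plexus is the epithelium that hangs into the ventricles beside the hippocampus and makes cerebrospinal fluid. The cells were picked on their own RNA: a barcode counted as a choroid plexus cell when it had at least 500 detected genes, under 15% mitochondrial UMIs, Ttr at 5% or more of its UMIs, and at least 1 UMI of Folr1, Kl, Clic6, Prlr or Kcnj13. UMIs (unique molecular identifiers) count captured RNA molecules. The rule found 267 cells among 12954 that passed the filters on genes and mitochondrial UMIs, 219 of 7105 in the DTR-negative library and 48 of 5849 in the DTR-positive library. Since Ttr and the 5 genes named above chose the cells, their levels describe the choice and support nothing else.

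The libraries hold live CD45- Thy1- cells sorted from the hippocampus of mice given diphtheria toxin. The DTR-negative library came from Foxp3-DTR- mice and the DTR-positive library from their Foxp3-DTR+ littermates, in which Foxp3-expressing regulatory T cells carry the toxin's receptor and are the cells the toxin is meant to remove. The labels name neurons and glia as the sorted cells, and the epithelial choroid plexus cells are neither. Both groups received the toxin, so the comparison is of the transgene under toxin, not of toxin against none. Strain, age, sex, dose and the time from injection to harvest are not given in the sources used here. Each library pooled 2 mice, and there was 1 library per genotype. Genotype and library therefore cannot be told apart, no test over animals exists, and the intervals in brackets are exact 95% intervals that cover counting error only. Cells are not replicates, and sums over cells stand for 1 library each. Levels are given as CPM, here UMIs for every 1000000 UMIs other than Ttr. The choroid plexus cells held 0 Foxp3 UMIs, which allows up to 4.14 CPM for DTR-negative and 19.98 CPM for DTR-positive cells.

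Choroid plexus epithelial cells sit on a leaky capillary bed and form a blood to cerebrospinal fluid barrier through tight junctions. They move sodium, chloride, bicarbonate and water into the ventricle. They also carry folate, thyroid hormone and retinol, and they make transthyretin (Ttr), best known as a carrier of thyroid hormone. They bear tufts of motile cilia, are rich in mitochondria, and also serve as a gate for leukocytes, a role linked to interferon-gamma signalling.

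The DTR-negative library held 8220 barcodes and 53.5 M UMIs, and the DTR-positive library 6548 barcodes and 35.8 M UMIs. Of these barcodes 18 occurred in both libraries, and 0 of the 18 were choroid plexus cells. The choroid plexus cells had a median of 3864 UMIs and 1129 genes in the DTR-negative library and 3462 UMIs and 1111 genes in the DTR-positive one, while the other cells had medians of 6180.5 and 4594 UMIs. Median mitochondrial shares were 2.47% and 2.08%. The 2 sets of choroid plexus cells were thus sampled to a similar depth, but their sums were not: 725390 UMIs other than Ttr in DTR-negative cells and 150169 in DTR-positive cells.

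Ttr took a median of 37.2% of all UMIs in DTR-negative and 29.6% in DTR-positive choroid plexus cells, with a range of 5.39% to 54.4% and of 7.27% to 59.1%. The ranges overlapped almost completely. Just inside the threshold of 5% stood 5.39%, 5.64% and 5.82% in the DTR-negative library and 7.27%, 7.40% and 9.15% in the DTR-positive one. Just outside it, among barcodes with a UMI of the 5 genes, stood 4.79%, 4.73% and 4.33%, and 4.86%, 0.0393% and 0.0328%. In the DTR-negative library the values thus ran across the threshold without a clear gap. In all, 1 more barcode reached 5% of Ttr without a UMI of the 5 genes. A further 14 barcodes, all in the DTR-negative library, met the Ttr and gene criteria but failed the filters. Choroid plexus cells held 94.8% of all Ttr UMIs of the deposited DTR-negative barcodes and 98.2% of the DTR-positive ones, filtered or not.

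**Figure D1:**
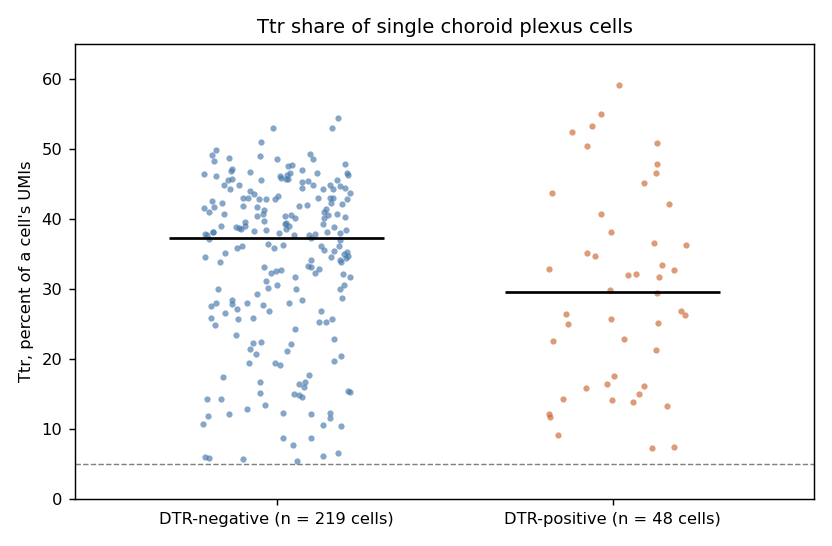
Ttr as a percent of each cell's UMIs (vertical axis) in the 219 DTR-negative and 48 DTR-positive choroid plexus cells. Each point is a cell, the black bars mark the medians of 37.2% and 29.6%, and the dashed line is the 5% that the selection required, so the lower edge of both clouds is set by the choice.

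The 5 other genes of the rule each marked a part of the cells. Folr1, the folate receptor of the apical membrane, stood at 1234 CPM and, among DTR-positive cells, at 1585, and 94.1% and 97.9% of the cells had a UMI. Kcnj13, an inward rectifier potassium channel, stood at 851 and 719 CPM, Prlr, the prolactin receptor, at 575 and 446, Kl, the anti-ageing hormone and FGF co-receptor klotho, at 357 and 366, and Clic6, a chloride intracellular channel family member, at 258 and 280. In the other cells of the same libraries none of the 5 reached 2 CPM. All 5 had UMIs in 44 DTR-negative and 10 DTR-positive cells, and 8 and 2 cells rested on a single one. Ttr stays out of the totals because its large and variable share would shift all other genes.

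Choroid plexus cells made up 3.08% of the DTR-negative cells (2.69 to 3.51) and 0.821% of the DTR-positive cells (0.606 to 1.09), a share 3.76 times lower after the toxin in Foxp3-DTR+ mice (log2 ratio -1.91, -2.39 to -1.45). The intervals of the 2 shares did not overlap. The amount of Ttr outside the choroid plexus cells moved the same way: the other cells held 195 CPM of Ttr in one library and 27.9 CPM in the DTR-positive one, and 40.2% against 13.0% of them had at least 1. How much choroid plexus was taken along with each hippocampus is not given in the sources used here, so a change of the tissue and a difference in what was dissected cannot be told apart.

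The cells carried the genes that define this epithelium far beyond the selection. Of 1358 genes at 100 CPM or more in the choroid plexus cells of both libraries, 227 (16.7%) stood at least 4-fold above the other cells of the same library in both. These cells were chosen from the same counts, so the folds are a description. Specific here means above the other cells of these libraries, of which 0 were classed as ependymal. The most specific genes included Pifo and Drc7, of the cilium, Slc16a8, a lactate transporter of basolateral membranes, Kcne2, a potassium channel subunit, Otx2, the homeobox factor that specifies choroid plexus, Lbp, the lipopolysaccharide binding protein, Krt18, an epithelial keratin, F5, coagulation factor V, Sostdc1, a secreted antagonist of BMP and Wnt signalling, and Ecrg4, a secreted peptide precursor. Otx2 stood at 256 CPM in DTR-negative and 186 in DTR-positive choroid plexus cells, against 0.214 and 0.0286 in the other cells. Kcne2 stood at 549 and 233, against 0.331 and 0.0286. Ecrg4 was the most abundant of the 25 most specific genes, at 5123 and 4055 CPM against 7.18 and 7.18. The remaining ones were Smim22, Defb11, Wfdc2, 2900040C04Rik, Prr32, Frmpd1os, Calml4, Ccdc113, Gm29538, Serpinb1b, Spint2, Rsph1, Prcd, Steap1 and 1110017D15Rik, each above 100 CPM in both libraries.

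**Figure D2:**
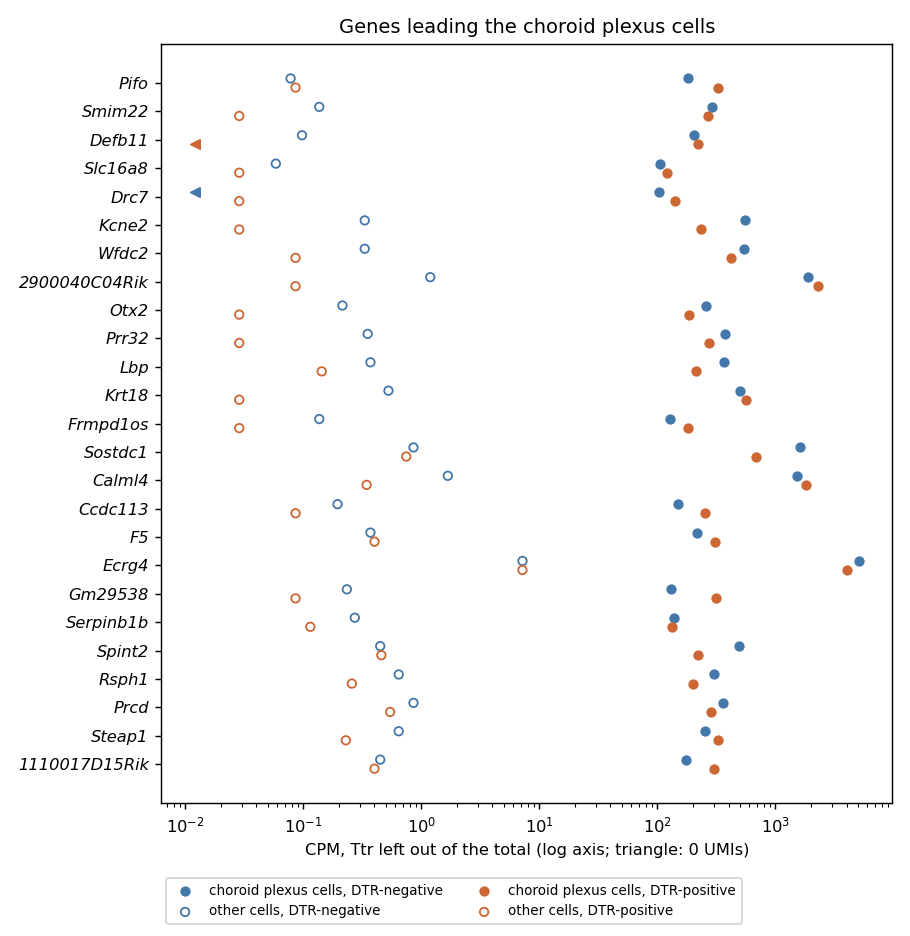
Levels of the 25 genes that stood furthest above the other cells, in CPM with Ttr left out of the total (log axis), with choroid plexus cells as filled points and all other cells as open points, in blue for the DTR-negative and orange for the DTR-positive library. Triangles mark 0 UMIs (Defb11 and Drc7 in the other cells of 1 library each). The filled points lie above 100 CPM for every gene, while the open points are at most 7.18.

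Some motile cilium genes were part of the signature. Of 15 listed cilium genes, 6 reached 100 CPM in the choroid plexus cells of both libraries and could be assessed. They were thus let in by their level in these same cells. Of the 15, 3 had 0 UMIs in DTR-negative and 5 in DTR-positive choroid plexus cells. All 6 passed the 4-fold mark, next to 16.7% of all genes held to the same level. These were Dynlrb2 (a dynein light chain) at 189 and 153 CPM and Rsph1 (a radial spoke head protein) at 299 and 200. Cfap126 stood at 156 and 366 and Tekt1 (a tektin of axonemal microtubules) at 125 and 186. Pifo stood at 182 and 326 and Mlf1 at 192 and 260. The master regulators were low: Foxj1 stood at 37.2 and 13.3 CPM. Ependymal cells share this ciliary programme, but 0 of the other cells in either library were classed as ependymal. The cilium genes were thus not compared with such cells. The 5 listed ependymal markers summed to 247 and 199.8 CPM in the choroid plexus cells, against 37.4 and 43.6 in the other cells. Dynlrb2, given above as a cilium gene, made up most of that sum. Ccdc153 and Tmem212 were at 0 in the choroid plexus cells of both libraries, and Rarres2 stood at 20.7 and 33.3 CPM against 20.3 and 27.4 in the other cells.

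Since all assessed cilium genes stood out, promoters of some cilium genes are shown. RFX factors drive ciliary genes in many tissues and bind the half-site GTTGCC. This motif was searched on both strands in the 300 bases from 250 before to 50 after each RefSeq start (GRCm38.p6, which mm10 corresponds to). It occurred in 8 of 18 promoters of the listed cilium genes (44.4%). Of these 8, those of Ccdc153, Mcidas, Rfx2 and Rfx3 belong to listed genes that were not among the assessed ones. None of the promoters of Cfap126, an assessed gene, held the motif. It was found in 9 of 31 promoters of 22 of the 25 most specific genes (29.0%). All genes past 4-fold had it in 43 of 232 promoters (18.5%), next to 12.5% of all 32851 promoters. Genes with several starts count more than once, and neighbouring starts share sequence. Below are the promoters with the motif of 5 cilium genes. Of these, Ccdc113 was among the 25 most specific genes but not on the cilium list. The sequences run 5′ to 3′ on the strand of the gene, with GTTGCC or its reverse complement GGCAAC in capitals. A match describes the letters and is no binding site by itself.

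Pifo, chr3:106001448-106001747, minus strand: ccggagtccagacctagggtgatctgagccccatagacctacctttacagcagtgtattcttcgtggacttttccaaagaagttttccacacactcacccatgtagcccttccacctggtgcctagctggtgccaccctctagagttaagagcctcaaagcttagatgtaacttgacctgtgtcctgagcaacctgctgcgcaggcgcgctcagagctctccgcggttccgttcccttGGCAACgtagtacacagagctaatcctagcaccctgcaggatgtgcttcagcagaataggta
Ccdc113, chr8:95533850-95534149, plus strand: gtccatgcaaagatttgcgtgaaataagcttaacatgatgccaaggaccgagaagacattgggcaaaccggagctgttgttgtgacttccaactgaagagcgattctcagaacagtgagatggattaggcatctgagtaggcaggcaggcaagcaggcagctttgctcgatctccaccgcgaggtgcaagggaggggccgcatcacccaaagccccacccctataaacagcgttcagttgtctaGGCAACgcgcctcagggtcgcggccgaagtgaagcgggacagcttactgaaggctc
Dynlrb2, chr8:116504765-116505064, plus strand: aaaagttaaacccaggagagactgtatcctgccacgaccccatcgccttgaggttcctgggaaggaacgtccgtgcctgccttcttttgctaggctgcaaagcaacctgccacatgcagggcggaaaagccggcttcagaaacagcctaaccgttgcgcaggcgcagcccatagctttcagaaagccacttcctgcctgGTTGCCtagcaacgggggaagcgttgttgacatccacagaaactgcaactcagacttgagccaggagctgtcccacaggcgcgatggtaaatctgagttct
Tekt1, chr11:72361833-72362132, minus strand: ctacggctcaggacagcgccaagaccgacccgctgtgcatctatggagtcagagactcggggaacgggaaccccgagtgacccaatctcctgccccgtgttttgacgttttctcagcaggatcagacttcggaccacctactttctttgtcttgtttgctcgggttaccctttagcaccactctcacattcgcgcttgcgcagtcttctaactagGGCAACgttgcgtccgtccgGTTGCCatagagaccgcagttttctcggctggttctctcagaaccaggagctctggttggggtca
Mlf1, chr3:67373847-67374146, plus strand: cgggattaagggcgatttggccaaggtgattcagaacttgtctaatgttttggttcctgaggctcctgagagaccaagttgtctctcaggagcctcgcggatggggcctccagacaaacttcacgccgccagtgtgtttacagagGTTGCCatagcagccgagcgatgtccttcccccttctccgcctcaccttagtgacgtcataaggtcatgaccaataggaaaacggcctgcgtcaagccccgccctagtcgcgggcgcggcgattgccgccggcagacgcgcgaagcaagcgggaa

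In these promoters the first base of the motif lay at -12 in Pifo, -6 in Ccdc113, -51 in Dynlrb2 and -105 in Mlf1. Tekt1 held it in both orientations. In promoters of listed genes not shown it lay at -152 in Ccdc153, -195 in Mcidas, -116 in Rfx2 and 31 in Rfx3. The letters TAATCC, bound by OTX factors, were present in 4 of the 31 promoters of the most specific genes (12.9%), next to 7.06% of all promoters. The 5 promoters of Kl, Prlr and Kcnj13 held neither motif.

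Genes of fluid secretion were expressed, though many of them are shared with glia. Among 23 listed ion and water transport genes, 5 of 10 that could be assessed in both libraries passed 4-fold, next to 16.7% of all genes. Atp1b1, a beta subunit of the sodium pump, stood at 948 and 499 CPM against 41.8 and 52.5 in the other cells, and Fxyd1, its regulator, at 1210 and 2038 against 60.4 and 101. Trpm3, a cation channel, stood at 471 and 346, and Slc4a10, a sodium bicarbonate transporter, at 117 and 113 against 4.50 and 6.81. Aqp1, the apical water channel, was low at 51.0 and 79.9 CPM but almost absent elsewhere, with 0.00 and 0.06. Car2, carbonic anhydrase, was by contrast lower than in the other cells, at 1383 and 1225 against 3657 and 3267, and reached its highest level in mature oligodendrocytes.

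Of 20 listed secreted factors and carriers, 4 of 8 assessed passed 4-fold, next to 16.7% of all genes. Enpp2, the enzyme autotaxin, was found in every choroid plexus cell, at 10361 and 9496 CPM, and exceeded mature oligodendrocytes, the next highest class, 6.32-fold and 5.22-fold. Igfbp2, an insulin-like growth factor binding protein, stood at 1345 and 2304 against 53.8 and 58.3 in all other cells, below the level in fibroblasts. Rdh5, a retinol dehydrogenase, stood at 773 and 686 against 6.64 and 5.21. The serotonin receptor Htr2c, a textbook marker of this epithelium, had 124 UMIs in DTR-negative and 14 in DTR-positive choroid plexus cells (171 and 93.2 CPM). Mt3, a metallothionein known from brain, was present in every cell at 4684 and 5234 CPM, below astrocytes at 7833 and 8675. The tight junction genes Cldn1, Cldn2 and Cldn3 were each below 64 CPM.

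The nuclear genes of the respiratory chain were high as a group. Their summed level was 105040 CPM in DTR-negative and 110895 in DTR-positive choroid plexus cells, against 26349 and 27922 in the other cells, and 27 of 78 assessed passed 4-fold, next to 16.7% of all genes. Among them were isoforms better known from muscle or testis: Cox8b stood at 817 and 546 CPM against 2.20 and 0.51, Cox7a1 at 236 and 220 against 2.92 and 2.52, and Cox6b2 at 317 and 286 against 11.1 and 13.2. Ribosomal protein genes, listed after values had been seen, summed to 112964 and 110629 against 58731 and 57577, and 1 of 80 passed 4-fold, below that 16.7%.

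Genes of regional identity were scarce. All 7 listed hindbrain Hox and related genes had 0 UMIs in both libraries, while the 5 listed forebrain genes summed to 45.5 and 26.6 CPM, below the other cells at 146 and 150. Emx1 had 15 and 3 UMIs. The homeobox factor Msx1 stood at 270 and 193 CPM against 5.10 and 4.95.

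Some RNA of other cell types was present. All 5 microglia and macrophage markers were at 0 in the choroid plexus cells. The 5 mature oligodendrocyte markers summed to 4078 CPM in DTR-negative and 2151 in DTR-positive choroid plexus cells, against 32874 and 26928 in the other cells, and the 5 astrocyte markers to 204 and 513. Barcodes with at least 3 of the 5 markers of another class numbered 28 of 219 in the DTR-negative library, 18 of them with oligodendrocyte markers, and 3 of 48 in the DTR-positive library, with 1 each for oligodendrocytes, astrocytes and oligodendrocyte precursors. Scrublet, which scores barcodes that look like 2 cells, marked 17 and 0. These barcodes stay in the counts below unless said otherwise.

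Between the genotypes the choroid plexus programme was largely level, with far lower Fos, lower Sostdc1 and Kcne2, and a set of higher stress genes that came from 3 cells. Of 1774 genes at 100 CPM or more in at least 1 library, 69 (3.89%) were at least 2-fold higher and 73 (4.11%) at least 2-fold lower in DTR-positive cells, and the median log2 ratio of DTR-positive over DTR-negative was 0.06. All 79 respiratory chain genes and all 80 ribosomal protein genes that could be assessed stayed within 2-fold.

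Fos, the immediate early gene of stimulated or freshly dissociated cells, had the lowest ratio of the genes assessed. It had 540 UMIs in DTR-negative choroid plexus cells, spread over 107 of 219 cells (48.9%, 42.1 to 55.7), and 2 UMIs in 2 of 48 DTR-positive cells (4.17%, 0.509 to 14.3). Its level was 744 and 13.3 CPM, a log2 ratio of -5.80 (-8.85 to -3.94). The richest 3 DTR-negative cells held 31.3% of the Fos UMIs. With every cell thinned to 1000 UMIs other than Ttr, which left out 14 DTR-negative cells and 1 DTR-positive cell, 34.1% of DTR-negative and 0.00% of DTR-positive cells had a Fos UMI.

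The rest of the libraries showed no such difference in Fos. Mature oligodendrocytes had a Fos UMI in 54.0% of DTR-negative and 52.4% of DTR-positive cells at median depths of 7633 and 6299 UMIs, and endothelial cells in 60.9% and 60.4% at 2016 and 1659 UMIs. Astrocytes, with 30.7% and 33.4%, were the lowest class, and the DTR-positive choroid plexus cells lay below every class of either library. Over the 7 classes the log2 ratio of Fos levels ran from -0.29 in astrocytes to 0.59 in fibroblasts.

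**Figure D3:**
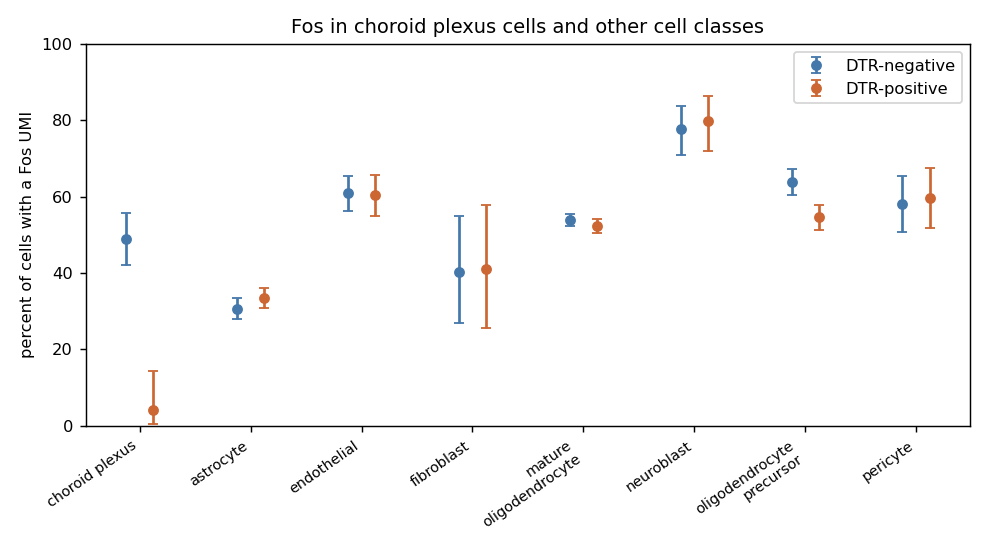
Percent of cells with at least 1 Fos UMI (vertical axis) in choroid plexus cells and 7 other cell classes, DTR-negative in blue and DTR-positive in orange, with exact 95% binomial intervals as bars. The pairs of points lie close together in 6 of the other classes and differ by 64.0% against 54.6% in oligodendrocyte precursors, while choroid plexus cells stand at 48.9% and 4.17%.

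Other early response and heat shock genes were lower too, at smaller counts. Of 24 listed dissociation and immediate early genes 10 could be assessed, and 4 were past 2-fold lower and 0 higher, next to 4.11% and 3.89% of all genes. Their median log2 ratio was -0.52, next to 0.06 for all genes. Dusp1, a MAP kinase phosphatase, had 124 and 5 UMIs in 64 and 3 cells, a log2 ratio of -2.36 (-4.01 to -1.10). Unlike Fos, Dusp1 was also lower in DTR-positive cells of most other classes. Its ratios there were -1.04 in pericytes, -0.51 in oligodendrocyte precursors, -0.40 in neuroblasts and -0.30 in mature oligodendrocytes. Astrocytes stood at -0.29, endothelial cells at -0.24 and fibroblasts, the other way, at 0.69. Dnajb1, a co-chaperone, had 79 and 4 UMIs (-2.03, -3.94 to -0.62), and 1 DTR-negative cell held 25 of the 79. With cells thinned as for Fos, 6.34% of DTR-negative and 6.38% of DTR-positive cells had a Dnajb1 UMI, so that share did not differ. The small heat shock gene Hspb1 had 168 and 15 UMIs (-1.21, -2.08 to -0.45). Egr1, below the level required, had 68 and 2 UMIs, Hspa1a 63 and 1, and Hspa1b 43 and 0. Jun and Jund stood at log2 ratios of -0.20 and -0.22, and Hsp90aa1 at 0.13. Without 3 unusual DTR-positive cells, described further on, 5 of the 10 were past 2-fold lower, with Jun at -1.46, and the median was -0.88.

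Among the genes that define the epithelium, a few were lower in DTR-positive cells. Of 15 listed choroid plexus genes assessed, 2 were past 2-fold lower and 0 higher, next to 4.11% and 3.89% of all genes. Sostdc1 had 1160 UMIs in DTR-negative and 102 in DTR-positive cells, 1599 and 679 CPM, a log2 ratio of -1.24 (-1.54 to -0.94), and 88.1% and 68.8% of the cells had a UMI. Kcne2 had 398 and 35 UMIs, with the same ratio of -1.24 (-1.78 to -0.73). Spint2, a serine protease inhibitor of epithelia, stood at 489 and 220 CPM (-1.16, -1.72 to -0.64). The sodium pump subunit Atp1b1 stood at -0.93 (-1.29 to -0.58) and Lbp at -0.78, both inside 2-fold. Enpp2 (-0.13), Otx2 (-0.46), Calml4 (0.28) and Krt18 (0.17) remained within 2-fold.

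The Id genes, known early targets of BMP signalling, were also lower and were singled out after their values had been seen. Id3 had 450 and 33 UMIs (620 and 220 CPM, log2 ratio -1.50, -2.05 to -0.99), Id1 217 and 14 (-1.68, -2.58 to -0.90) and Id2 162 and 12 (-1.48, -2.46 to -0.64). In the other cells the ratios of Id3, Id1 and Id2 were -0.31, -0.34 and 0.41. Sgk1, a glucocorticoid and salt regulated kinase, stood at -1.12 (-1.93 to -0.40).

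Several of the 10 lowest ratios belonged to genes with a higher level in the other cells, or with a lower ratio there too. Apod, with 301 and 14 UMIs, and Gm21984, with 83 and 1, stood far below their level in the other cells, and with the barcodes of mixed markers left out their log2 ratios were 0.50 and 0.45, the opposite sign. Selenop (77 and 3 UMIs) and Itm2a (76 and 4) were likewise lower in choroid plexus cells than in other cells of the DTR-negative library, as was Fos. Sec61g and Tomm6, at -1.96 and -1.94, were lower in the other DTR-positive cells as well, at -1.67 and -1.01. Tvp23b, a Golgi membrane protein gene, had 77 UMIs in 56 DTR-negative cells and 1 UMI in DTR-positive cells (-3.99, -9.32 to -1.47), where the other cells stood at -0.31.

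For 9 of the 10 highest ratios, most UMIs came from the same 3 cells. The 10 genes furthest up were Snhg15, a host gene of small nucleolar RNA (log2 ratio 7.04), Cxcl16, a membrane chemokine (4.65), Gadd45b, a growth arrest gene (3.92), Rcan1, a calcineurin inhibitor (3.69), Tnfrsf12a, the TWEAK receptor (3.64), Fabp7, a fatty acid binding protein of astroglia (3.55), Ddit3, which encodes the stress factor CHOP (3.42), Dbp, a clock output factor (3.16), Ifrd1 (2.70) and Gm47283 (2.61). Snhg15 had 4 UMIs in 4 DTR-negative cells and 109 UMIs in 3 DTR-positive cells, which carried 32, 40 and 37 each. No other DTR-positive choroid plexus cell had one. The 3 cells richest in each gene held 80.0% to 100% of its DTR-positive UMIs.

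The 3 Snhg15-rich cells, 6.25% of 48 (1.31 to 17.2), shared 9 of the 10 raised genes, all but Fabp7. No DTR-negative cell had more than 5 of the 10, and the next highest DTR-positive cell had 3. A share of 0 among 219 DTR-negative cells allows up to 1.67% by the same exact interval. In the remaining cells of the libraries at least 10 Snhg15 UMIs were found in 2 of 6886 DTR-negative and 5 of 5801 DTR-positive cells.

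**Figure D4:**
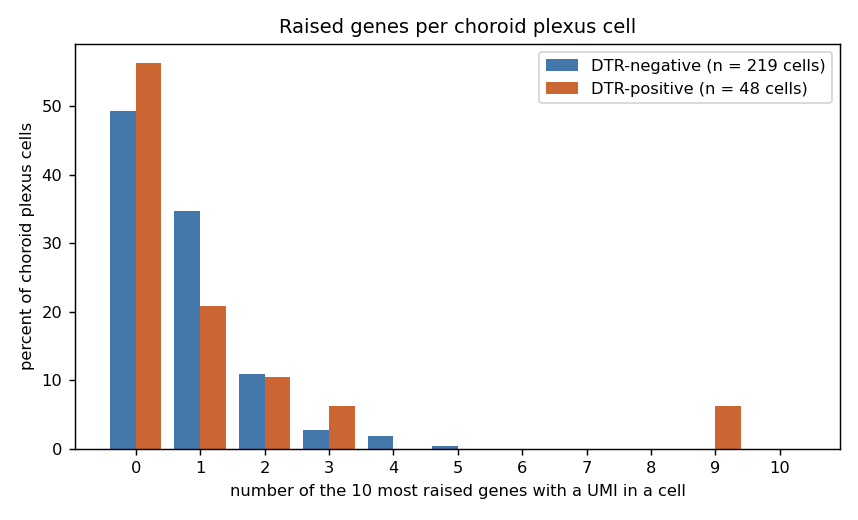
Percent of choroid plexus cells (vertical axis) by how many of the 10 genes with the highest DTR-positive over DTR-negative ratios had a UMI (horizontal axis), 219 DTR-negative cells in blue and 48 DTR-positive cells in orange. The DTR-positive bar at 9 is the 3 Snhg15-rich cells, 6.25% of the library's choroid plexus cells, with no cell between 6 and 8. The genes were chosen for their ratio, so the plot shows how the UMIs are spread and is no test.

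These 3 cells had 4524, 13237 and 8155 UMIs, Ttr at 24.96%, 26.8% and 22.9% of them, and 8, 13 and 13 Folr1 UMIs, within the range of choroid plexus cells. Scrublet marked none of the 3. Kl, Kcnj13, Prlr and Otx2 were at 0 in all 3. Mitochondrial UMIs made up 0.133%, 0.778% and 0.883%, which is low but not unusual, since other DTR-positive cells stood at 0.148%, 0.205% and 0.442%. They held 12.9% of the DTR-positive UMIs other than Ttr. Against the other 45 DTR-positive cells they were also high in Cdkn1a (49 UMIs against 2), Phlda3 (66 against 12), Bax (22 against 13) and Mdm2 (14 against 7), all targets of p53, in Atf4 (26 against 3), the factor of the integrated stress response, and in the small nucleolar RNA hosts Gas5 (80 against 66) and Snhg12 (32 against 4). They were low in the long nuclear RNA Malat1 (10 against 1232), in Actb (2 against 317), Arl6ip1 (1 against 328) and Ldhb (0 against 425). The cells were picked after their values had been seen, so these differences describe them and carry no test.

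Without these 3 cells, an alternative chosen after seeing the data, 44 of 1748 genes (2.52%) were past 2-fold higher and 71 (4.06%) lower, and 27 of the 69 higher and 56 of the 73 lower genes were shared with the full set. Of the 10 highest, Fabp7 alone stayed among the 10 highest, and of the 10 lowest 8 stayed. Ddit3 then stood at -0.11, Gadd45b at -1.34, Rcan1 at -0.34, Tnfrsf12a at -0.23, Ifrd1 at -0.56 and Gm47283 at -1.78, Cxcl16 and Dbp were at 1.15 and 1.04, and Snhg15 had 4 UMIs against 0, too few for a ratio. Fos was at -5.61, Dusp1 at -4.48, Sostdc1 at -1.06, Kcne2 at -1.04 and Id3 at -1.39, all on the same side as before. Of the 80 ribosomal protein genes 3 were then past 2-fold lower.

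**Figure D5:**
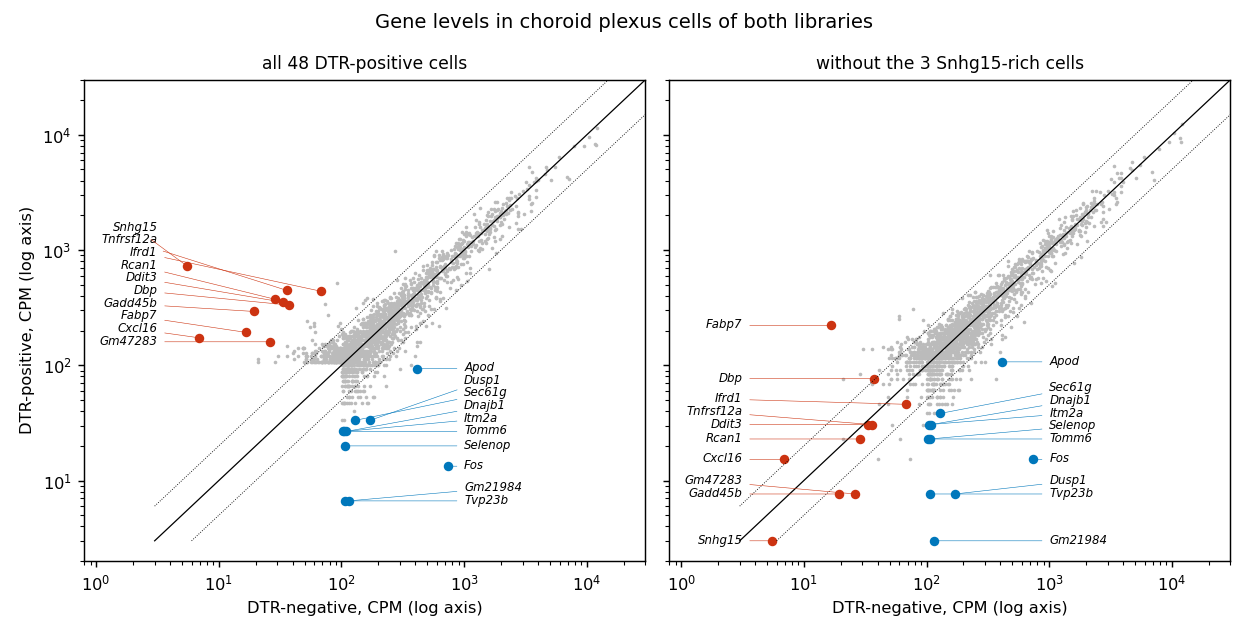
Level of each of the 1774 genes in DTR-negative (horizontal axis) and DTR-positive choroid plexus cells (vertical axis), in CPM on log axes, with all 48 DTR-positive cells (left) and without the 3 Snhg15-rich cells (right). Solid and dotted lines mark equal levels and 2-fold, the 10 highest ratios are red and the 10 lowest blue, and levels of 0 are drawn at 3. On the right Fabp7 is the red gene farthest above the line, Cxcl16 and Dbp lie just past 2-fold and the other red genes on or below the line, while Fos, Dusp1 and Tvp23b stay far below it.

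The genes that were highest without the 3 cells were mostly of glia. Fabp7 had 12 UMIs in 4 DTR-negative and 29 UMIs in 3 DTR-positive cells, and Slc1a2, a glutamate transporter, 43 UMIs in 13 and 35 in 3. Ptprz1 had 56 in 13 and 41 in 5, and Slc1a3 26 in 8 and 18 in 3. For each gene 1 DTR-positive cell held much of this: 25 UMIs of Fabp7, 30 of Slc1a2, 22 of Ptprz1 and 16 of Slc1a3. The richest DTR-negative cell held 9, 16, 26 and 12. Each was higher in the other cells than in choroid plexus cells in both libraries. As given above, 1 astrocyte and 1 oligodendrocyte precursor barcode were among the 48 cells. The ratios of these genes with the mixed barcodes left out are not reported here.

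Few genes of the immune lists could be read in these cells. Of 26 interferon-gamma response genes 2 could be assessed, Psme1 and Psme2, subunits of the proteasome activator, with log2 ratios of 0.44 and 0.25 and 0 past 2-fold. B2m, the light chain of class I molecules, had 49 and 14 UMIs. In the type I list 1 of 3 assessed was past 2-fold higher: Bst2 (tetherin) at 1.22 (0.71 to 1.71), and 0.72 without the 3 cells. Ifi27 stood at 1668 and 2251 CPM (0.43) and Isg15 had 20 UMIs against 0. Vcam1, an adhesion molecule for leukocytes, stood at 136 and 186 CPM (0.45, -0.21 to 1.07). Most genes of these lists were below 100 CPM in the choroid plexus cells of both libraries, and of the interferon-gamma list 10 had 0 UMIs in DTR-negative and 16 in DTR-positive cells.

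The stress lists rested on the Snhg15-rich cells. All 4 of the p53 targets that could be assessed were past 2-fold higher, 2 of 3 integrated stress response genes and 3 of 5 small nucleolar RNA hosts, next to 3.89% of all genes. These 3 lists were drawn up after values had been seen. Without the 3 cells, 0 p53 targets reached the level required, and 0 of the other 2 lists' genes were past 2-fold higher. Cdkn1a then stood at -2.26 and Atf4 at -1.40. Of 13 genes for folding and export in the endoplasmic reticulum 2 were higher, Ddit3 and Atf4, and 1 lower, Sdf2l1 at -1.07 (-2.33 to -0.02), while the chaperone Hspa5 stood at 0.06.

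The remaining lists held few genes past 2-fold. In the transport lists, Slc2a12, a glucose transporter, had 48 and 21 UMIs (1.08, 0.27 to 1.85), and Slco1c1, a thyroid hormone carrier, stood at -0.84 (-1.45 to -0.28), inside 2-fold. Of 7 iron, copper and antioxidant genes assessed 0 were past 2-fold, with Gpx4 at -0.61 and Ftl1 at 0.54 (0.04 without the 3 cells). Cfap126 was the 1 cilium gene of 6 past 2-fold higher, at 1.23 (0.74 to 1.71) and 0.78 without the 3 cells. Ednrb, an endothelin receptor, had 15 and 17 UMIs (2.45, 1.36 to 3.56), and its level in the other cells was 109 and 167 CPM.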

How the data were processed

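Single-cell RNA of live CD45- Thy1- hippocampal cells was measured with the 10x Genomics 3' kit, 1 library of 2 pooled mice per genotype, per the labels' protocols. The authors deposited raw UMI counts, a whole number for each gene in each barcode, from Cell Ranger 6.1.0 per the file headers, on mm10 per the submitters' processing notes. The annotation release is not given in the sources used here, and the meningeal samples were not analysed here. Genes per barcode, mitochondrial UMIs, Ttr and the 5 marker genes selected the cells. The cells, gene lists and comparisons were chosen with earlier results of these data known.

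Counts were summed over cells per library and scaled to CPM, with Ttr left out of the total. Ratios between libraries carry exact conditional binomial intervals, and shares exact Clopper-Pearson intervals, both at 95%. Genes needed 100 CPM in at least 1 library (in both for the comparison with other cells). A sum of 0 was replaced by 3 counts. No ratio was given where these 3 counts, scaled to the library's total, did not stay below the level of the other library. Named genes are the 25 furthest above the other cells, the 10 highest and 10 lowest ratios whose interval excludes 0, and listed genes. Comparison classes needed 3 of 5 markers and more than any other class. Doublets were scored with Scrublet (Scanpy 1.11.5) and kept: 242 of the filtered DTR-negative and 158 of the DTR-positive cells. The ratio code was tested on simulated data. Python 3.11.15, NumPy 2.4.6, SciPy 1.17.1 and pandas 2.3.3 were used. Alternatives were stricter filters on genes, Ttr and markers, doublets or mixed barcodes left out, Ttr in the totals, equal weight per cell, thinning to 1000 UMIs, and other level thresholds. Promoters are RefSeq's, GRCm38.p6. Single values of some listed or selected genes are not reported here.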

Additional observations from a re-analysis of the deposited data

How the results depend on the processing

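No paired analysis was possible because each genotype is 1 library of pooled mice. Leaving out a replicate is likewise not possible. The cell share log2 ratio ran from -1.94 to -1.80 over the 5 alternative selections. The shares themselves were 2.17% and 0.603% with at least 1000 genes, and the DTR-negative share 2.69% without mixed barcodes. Genes past 4-fold over the other cells numbered 125 with Ttr in the totals, 142 at a level of 200 and 717 without a level filter. Genes higher and lower between genotypes numbered 104 and 96 with at least 1000 genes, 48 and 35 with Ttr in the totals (median of all genes 0.14), 211 and 152 after thinning, where each gene has fewer UMIs, 23 and 26 at a level of 200, 710 and 821 without a filter, and 44 and 71 without the Snhg15-rich cells. The share of higher among these calls was 48.6% and fell to 38.3% without the Snhg15-rich cells, while it was between 46.3% and 58.1% in the other settings.

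Of the ratios of the 20 named genes, 11 values in 238 changed sign. Apod stood at 0.96 with doublets removed, 0.50 without mixed barcodes and 0.025 after thinning, and Gm21984 at 0.38 and 0.45 under the first 2. Without the Snhg15-rich cells Ddit3 was at -0.11, Gadd45b at -1.34, Gm47283 at -1.78, Ifrd1 at -0.56, Rcan1 at -0.34 and Tnfrsf12a at -0.23. Of the list medians, leukocyte trafficking was at -0.13 after thinning and -0.15 without a level filter, type I interferon at -0.26 without the filter, and the junction list at 1.82 relative to the other cells, where its keratins have few UMIs. The 25 folds over other cells kept their direction in all 275 values. Fos ran from -6.56 to -3.48 and Dusp1 from -4.48 to -1.96. Scaling relative to the other cells and leaving out the Snhg15-rich cells were chosen after seeing the data. Depth limits the DTR-positive values: the limit that 0 counts allow is 19.98 CPM there and 4.14 CPM in DTR-negative cells.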
